A study of Mus musculus with 9 samples.

Results

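The naive pluripotency factors are transcription regulators that mark mouse embryonic stem cells (ESCs) in their ground state. They were taken here as the 10 genes Nanog, Klf2, Klf4, Klf5, Esrrb, Tfcp2l1, Zfp42, Prdm14, Nr5a2 and Dppa3, picked by gene name from a table of 47729 mouse genes. The RNA came from an ESC line in which doxycycline (dox) switches on a forced E2A homodimer, made of a pair of E47 sequences (E47 is a splice form of E2A, the product of Tcf3) joined by a flexible linker. All cells carried this transgene and were grown in leukaemia inhibitory factor (LIF) and serum. The 0 h group had no dox, and the 18 h and 24 h groups had 1 µg/ml dox for those times, with 3 libraries in each of the 3 groups. The comparison asks how the naive network stands when cells are pushed towards the neural lineage while still under self-renewal conditions. The libraries hold no line without the transgene under dox, so an effect of dox and an effect of the homodimer cannot be told apart, and the sources used here do not say whether the line is 1 clone.

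As background, naive pluripotency is the state of the preimplantation epiblast, and ESCs keep it through a set of transcription factors that hold each other's expression in place. LIF acts through JAK kinases and STAT3 and feeds mainly into Klf4 and Tfcp2l1, inhibition of MEK favours Klf2, and relief of repression by TCF7L1 favours Esrrb, while NANOG and ESRRB sit further inside the circuit. In serum the expression of several of these factors, among them Nanog, Zfp42, Dppa3 and Esrrb, is known to vary from cell to cell. On exit from the naive state they are lost early, before neural or other lineage genes are established.

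Tcf3, the gene of the induced protein, was measured at 39.1±1.80 FPKM (fragments per kilobase of exon, scaled to the number of mapped reads, mean±s.d., n=3) at 0 h, 110.1±5.52 FPKM at 18 h and 102±7.55 FPKM at 24 h. Reads from the endogenous gene and from the transgene are counted together in these values. ESC identity was checked with the markers Pou5f1, Sox2, Sall4, Lin28a, Utf1 and Tdgf1, which were all detected and summed to between 838 and 984 FPKM at 0 h and between 590 and 714 FPKM at 24 h. Between 22028363 and 26471569 reads on genes were recovered per library, and the 10 factors were all above the filter on low values, a mean of 0.1 FPKM, that left 17951 genes for testing.

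The 10 factors covered a wide range of levels. In untreated cells Zfp42, a zinc-finger gene also known as Rex1 and a widely used reporter of the naive state, was highest with 109.0±37.4 FPKM, ahead of Nanog at 40.6±5.51, Dppa3 at 36.1±7.92, Klf2 at 33.2±10.4, Klf5 at 23.1±5.90 and Esrrb at 17.8±7.63 FPKM. Klf4 followed at 6.14±1.58 FPKM, Tfcp2l1 at 5.57±1.74, Nr5a2 at 2.42±0.40 and Prdm14 at 1.10±0.44 FPKM. The ranges of the 3 libraries did not overlap between Zfp42 and Nanog, Esrrb and Klf4, Tfcp2l1 and Nr5a2, or Nr5a2 and Prdm14, and every other neighbouring pair in this order overlapped. After 24 h of dox the order had changed in its middle, with Esrrb above Klf5, and the libraries of these 2 genes no longer overlapped. The mean of Zfp42 (101.8±27.8 FPKM) was still above those of Nanog (73.4±8.12 FPKM) and Dppa3 (72.2±20.5 FPKM), but the highest library of each reached into its range.

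**Figure D1:**
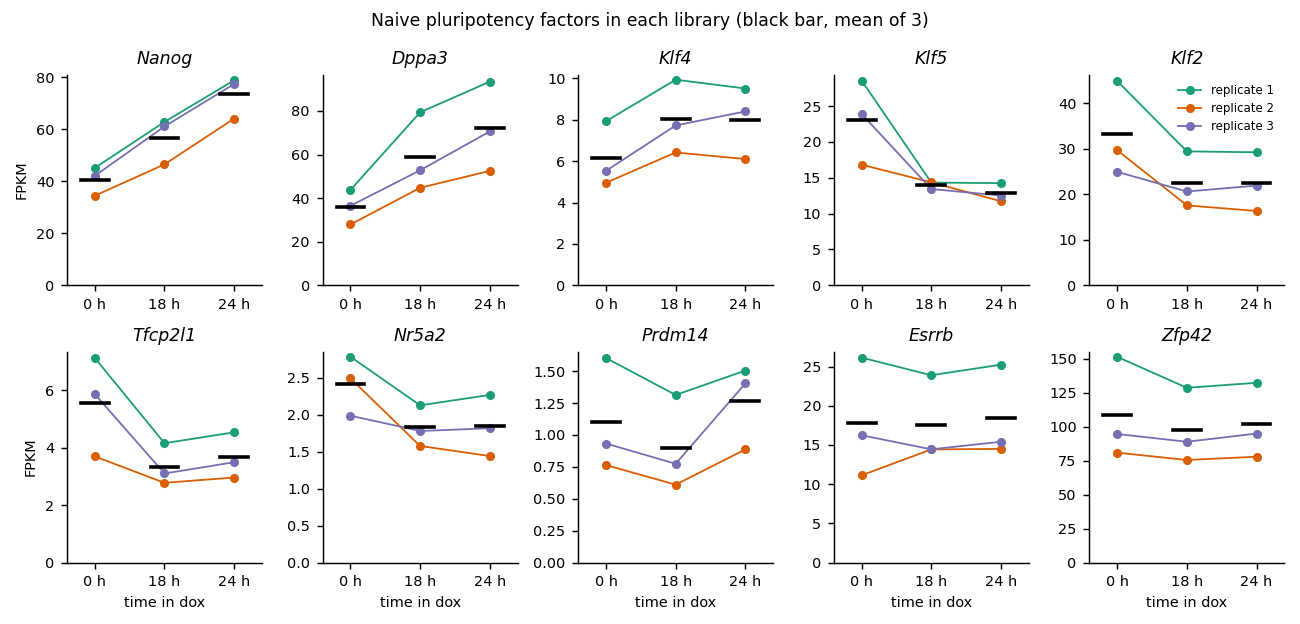
FPKM of each naive pluripotency factor (vertical axes, linear and starting at 0) at 0, 18 and 24 h of dox, with 1 point for each library, lines joining libraries of the same replicate number, and a black bar for the mean of 3 libraries. Nanog and Dppa3 lie higher at both dox times than in any untreated library, Klf5 lies lower, and replicate 1 lies highest of the 3 in most panels.

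The 10 factors did not move as a group. After 24 h of dox, Nanog and Dppa3 rose 1.81-fold and 1.98-fold, Klf5 fell by 43.1%, and the other 7 did not pass the test. In limma, at a p of 0.05 or less after Benjamini–Hochberg adjustment across the genes tested, 2 of the 10 passed upwards and 1 downwards, where 6.52% of the 17951 genes passed upwards and 5.11% downwards. At 18 h, Klf5 was the only one to pass, in the downward direction that 3.72% of all genes took. No factor passed upwards at 18 h, against 4.27% of all genes, although 2 (Nanog and Dppa3) had an unadjusted p under 0.05 and Nanog passed in edgeR and in DESeq2. In edgeR 3 factors passed at 18 h and 3 at 24 h, where 10.3% and 14% of 19210 genes did, and in DESeq2 2 and 3, where 12.8% and 16.2% did. No factor reached a 2-fold change at either time in limma, edgeR or DESeq2, at an adjusted or an unadjusted p under 0.05, against 2.06% of all genes at 18 h and 2.9% at 24 h in limma. The median log2 fold-change of the 10 was -0.20 at 18 h and 0.0016 at 24 h, beside -0.0030 and 0.0040 for all genes tested.

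Deviations from the group means were shared by libraries of 1 replicate number, and a second fit therefore took the number as a block, so that each dox library is compared with the untreated library of its own number. No label says that a number stands for a shared culture or day, so the paired calls rest on this likeness between libraries. In this paired fit 3 of the 10 factors rose at 24 h (Nanog, Dppa3 and Klf4), where 13.6% of all genes did, and 3 fell (Klf5, Klf2 and Tfcp2l1), where 12.5% of all genes did. The same 6 genes passed in the same directions at 18 h, beside 10.8% of all genes upwards and 10.7% downwards. In edgeR with the block, 8 factors passed at 18 h and 7 at 24 h, where 27% and 31.4% of 19210 genes did. The untreated libraries serve as the control of both comparisons, so the 2 times are not independent of each other. In bulk RNA, a smaller number of cells expressing a gene and less RNA in each cell cannot be told apart.

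**Figure D2:**
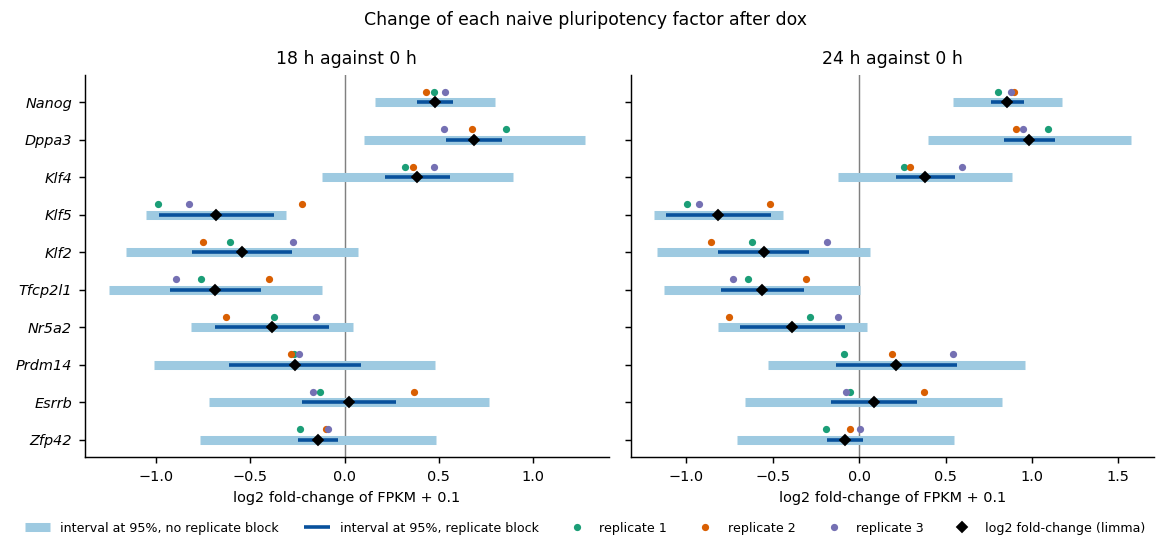
Log2 fold-change of FPKM+0.1 (horizontal axes) at 18 h and 24 h compared with 0 h for the 10 factors. Diamonds give the limma estimate, pale bars its 95% interval without the replicate block and dark bars that with the block, and the coloured points are the differences within each replicate number. All 3 points lie above 0 for Nanog, Dppa3 and Klf4 and below 0 for Klf5, Klf2, Tfcp2l1 and Nr5a2 at both times.

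Nanog, which encodes a homeodomain factor that can sustain self-renewal when its level is raised, had 45.1, 34.5 and 42.1 FPKM in the 0 h libraries. It had 62.8, 46.5 and 61.1 FPKM at 18 h and 78.8, 64.1 and 77.4 FPKM at 24 h. Every library was thus above every library of the time before, with no overlap between any of the groups. On the log2 scale Nanog was higher by 0.48±0.14 (s.e.) at 18 h, which passed with the replicate block (adjusted p=0.00090) but not without it (0.068), and rose by 0.86±0.14 at 24 h (adjusted p=0.0074). The 24 h change was close to equal in the 3 replicate numbers, at 0.80, 0.89 and 0.88, and it passed in each fit that left out 1 library, with the adjusted p between 0.0062 and 0.036. It did not pass when all 3 libraries of replicate 1 or of replicate 3 were left out (adjusted p=0.054 and 0.13), an alternative chosen after seeing the data. At 18 h the call was gained without the 18 h replicate 2 (adjusted p=0.048). Nanog lies on chromosome 6 at chr6:122707489-122714633 on the plus strand of GRCm38, with 5 separate exon blocks, and its pseudogenes Nanog-ps1 and Nanog-ps2 were listed at 0 in each of the 9 libraries.

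Dppa3, also known as Stella, encodes a maternal factor that shields DNA methylation in the zygote and marks early germ cells. It had 43.8, 27.9 and 36.5 FPKM at 0 h, 79.4, 44.8 and 52.8 FPKM at 18 h and 93.5, 52.5 and 70.6 FPKM at 24 h. No dox library lay within the 0 h range, while the 18 h and 24 h ranges overlapped. The log2 differences from 0 h were 0.69±0.26 after 18 h, with an adjusted p of 0.14 (0.0011 with the replicate block), and 0.98±0.26 after 24 h, with an adjusted p of 0.042. Within replicate numbers the 24 h difference was 1.09, 0.91 and 0.95. The unpaired 24 h call was lost without any one of the 0 h replicates 1, 2 and 3, the 18 h replicate 3 and the 24 h replicates 1 and 3 (adjusted p=0.063, 0.11, 0.082, 0.063, 0.10 and 0.12, respectively). The gene lies at chr6:122626410-122630272 on the plus strand, and its pseudogene Dppa3-ps reached at most 0.44 FPKM in any library.

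Klf5 encodes one of the Krüppel-like zinc-finger factors and is needed for the inner cell mass and trophectoderm of the blastocyst. Its untreated libraries had 28.6, 16.8 and 23.9 FPKM, while those at 18 h had 14.3, 14.4 and 13.4 FPKM and those at 24 h had 14.2, 11.7 and 12.5 FPKM. All 6 dox libraries lay below all 0 h libraries, and the spread between libraries was also smaller with dox, at a s.d. of 0.53 FPKM at 18 h compared with 5.90 FPKM at 0 h. On the log2 scale Klf5 fell by 0.68±0.16 in 18 h (adjusted p=0.038) and fell by 0.81±0.16 in 24 h (adjusted p=0.016). Replicate 2, with the lowest untreated value, changed least at 24 h, by -0.52 compared with -0.998 and -0.926 in replicates 1 and 3. The 24 h call was lost without the 24 h replicate 2 or 3 (adjusted p=0.067 and 0.063). The 18 h call was lost without the 0 h replicate 1 or 3, the 18 h replicate 1, 2 or 3, or the 24 h replicate 2 or 3 (adjusted p=0.099, 0.098, 0.075, 0.10, 0.12, 0.058 and 0.062). Klf5 lies at chr14:99298691-99315036 on the plus strand.

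At 18 h, 2 of the 10 factors (Nanog and Dppa3) had every dox library above every untreated one, as 14.4% of all genes did, and Klf5 had every library below, as 13.7% did. The same 3 genes were apart in the same directions at 24 h, when 16.7% of all genes lay above and 14.6% below.

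The other Krüppel-like factors of the naive network did not follow Klf5 in a simple way. Klf4, a reprogramming factor that responds to LIF, had 7.93, 4.96 and 5.54 FPKM at 0 h, 9.94, 6.42 and 7.73 FPKM at 18 h and 9.51, 6.11 and 8.41 FPKM at 24 h. The groups overlapped, but each replicate number was higher with dox at both times. Its 24 h change was 0.38±0.22 on the log2 scale (adjusted p=0.30), and it rose in the paired fit (adjusted p=0.010, 95% interval 0.21 to 0.55). Klf2, which is held up by MEK inhibition, had 44.9, 29.7 and 25.0 FPKM at 0 h and 29.3, 16.4 and 21.9 FPKM at 24 h. It was lower with dox in all 3 replicate numbers, and it fell only in fits with the replicate block. Its log2 fold-change was -0.55 in limma (adjusted p=0.22 without and 0.013 with the block). In edgeR with the block the adjusted p was 4.8e-05. Without the 0 h replicate 1 the 24 h change of Klf2 was -0.31 and that of Klf4 0.58, without the 24 h replicate 2 that of Klf2 was -0.34, and without the 0 h replicate 2 or the 24 h replicate 1 that of Klf4 was 0.25 and 0.25. In the paired fit Klf4 thus changed in the opposite direction to Klf2 and Klf5 at both times. Klf4 lies at chr4:55527143-55532466 on the minus strand and Klf2 at chr8:72319033-72321656 on the plus strand.

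Tfcp2l1, a grainyhead-like factor downstream of LIF and STAT3, had 7.13, 3.70 and 5.87 FPKM at 0 h. With dox it had 4.16, 2.78 and 3.11 FPKM at 18 h and 4.54, 2.96 and 3.50 FPKM at 24 h. Replicate 1 with dox was above replicate 2 without, so the groups overlapped, but each replicate number was lower with dox. The change on the log2 scale was -0.69±0.25 in 18 h and -0.56±0.25 in 24 h. Neither passed unpaired (adjusted p=0.13 and 0.18) and both passed with the replicate block (0.0054 and 0.0086). The 18 h change also passed unpaired in edgeR (adjusted p=0.050), and in limma without the 0 h replicate 2 (adjusted p=0.036). Without the 0 h replicate 1 the 24 h change was -0.36. Tfcp2l1 lies at chr1:118627945-118685168 on the plus strand and overlaps 3 annotated genes, all listed at 0 FPKM, and the other 9 factors overlap no annotated gene.

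Among the nuclear receptors, Nr5a2, which binds regulatory sequences of Pou5f1, had 2.79, 2.49 and 1.99 FPKM at 0 h and 2.27, 1.44 and 1.82 FPKM at 24 h. It was lower with dox in 3 of 3 replicate numbers at both times, and its 24 h change of -0.39±0.19 (log2) had an adjusted p of 0.22, or 0.066 with the replicate block, and it passed in edgeR with the block (adjusted p=0.0074). Without the 24 h replicate 2 the change was -0.23. Esrrb, the orphan receptor placed near NANOG in the network, had 26.1, 11.1 and 16.2 FPKM at 0 h and 25.2, 14.5 and 15.4 FPKM at 24 h. Its direction differed between replicate numbers and it did not pass in any fit. The 95% interval of its log2 fold-change at 24 h ran from -0.66 to 0.83, and from -0.16 to 0.33 with the block. Nr5a2 lies at chr1:136842571-136960448 on the minus strand and Esrrb at chr12:86361117-86521628 on the plus strand.

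Zfp42 had 151.4, 80.9 and 94.6 FPKM at 0 h, 128.7, 75.5 and 88.9 FPKM at 18 h and 132.3, 77.9 and 94.98 FPKM at 24 h. The 3 groups overlapped almost fully, and the spread between replicate numbers was larger than any change with time. The 95% interval of the log2 fold-change at 24 h was -0.71 to 0.55, and -0.19 to 0.02 in the paired fit. At 18 h all 3 replicate numbers were lower (log2 fold-change -0.14), with an adjusted p of 0.79 in limma, 0.064 with the block and 0.044 in edgeR with the block. Prdm14, which represses FGF signalling and DNA methyltransferase genes in naive cells, was the lowest of the 10, with 1.60, 0.76 and 0.93 FPKM at 0 h, 1.31, 0.61 and 0.77 FPKM at 18 h and 1.50, 0.89 and 1.40 FPKM at 24 h. These values rest on between 39 and 98 reads per library. Its log2 fold-change at 24 h was 0.22 (95% interval -0.53 to 0.96), which did not pass in any fit. Zfp42 lies at chr8:43295063-43306980 and Prdm14 at chr1:13113457-13127163, both on the minus strand.

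Between 18 h and 24 h no factor passed in limma, with or without the replicate block, where 0.0223% and 0.0446% of all genes passed. None passed in edgeR or DESeq2 either, where 0% and 0.198% of all genes passed, and 1 (Nanog) had an unadjusted p under 0.05 in limma. With the block 3 had one (Nanog, Dppa3 and Prdm14), among them the factor with the largest difference, Prdm14, at a log2 fold-change of 0.48±0.33 that was above 0 in 3 of 3 replicate numbers (adjusted p=0.96, 0.30 with the block). In edgeR with the block 2 passed, both upwards, beside 1.11% of all genes in either direction. These were Nanog, with a log2 fold-change of 0.38 in limma (adjusted p=0.86, 0.056 with the block and 0.00078 in edgeR with the block) and no overlap between 18 h and 24 h libraries, and Dppa3, at 0.29 (adjusted p=0.97, 0.22 and 0.034, respectively). Klf2, Klf4 and Nr5a2 had log2 fold-changes of -0.0084, -0.0048 and -0.0018, with 95% intervals in the paired fit of -0.27 to 0.26, -0.18 to 0.17 and -0.30 to 0.30.

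The replicates differed in the level of the whole set. Relative to the mean of its time point, replicate 1 was higher for 10 of the 10 factors at each time, with a median difference between 0.32 and 0.40 on the log2 scale, and replicate 2 was lower for 9, 9 and 10 factors at 0, 18 and 24 h. The summed FPKM of the 10 factors was 359, 213 and 253 in the untreated replicates 1, 2 and 3 and 391, 249 and 308 at 24 h. The shares of Nanog, Dppa3, Zfp42 and Klf2 in that sum varied less between replicates at 0 h and 24 h than the sum did. Nanog made up between 12.6% and 16.7% of it at 0 h and between 20.1% and 25.8% at 24 h, and Dppa3 between 12.2% and 14.5% and between 21.1% and 23.9%. The share of Zfp42 moved from between 37.5% and 42.1% to between 30.8% and 33.8%, and that of Klf2 from between 9.87% and 14.0% to between 6.58% and 7.48%. The share of Klf5 at 18 h ran from 4.0% to 6.4%, while the sum at 18 h ran from 224.5 to 356.1 FPKM. As shares of 1 sum, these values are not independent of each other.

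**Figure D3:**
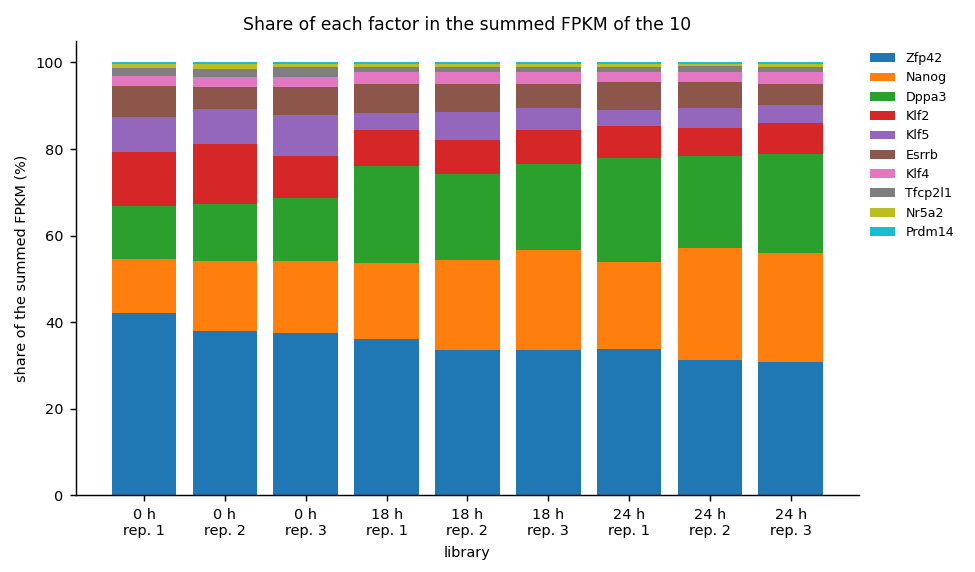
Share of each factor in the summed FPKM of the 10 (vertical axis, percent) in each of the 9 libraries (horizontal axis). Nanog and Dppa3 take up more of the sum at 18 h and 24 h than in any 0 h library, and Zfp42, Klf2, Klf5 and Tfcp2l1 take up less.

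Nanog and Dppa3 are neighbours on chromosome 6, with 77.2 kb between the end of Dppa3 and the start of Nanog. Of the 23 genes of the table within 200 kb on either side of the pair, 16 were tested and 3 passed at 24 h, all upwards, where 6.52% of all genes did. Nanog and Dppa3, around which the window was set, are 2 of the 3, and the other was Slc2a3, a glucose transporter gene on the minus strand downstream of Nanog (chr6:122727809-122801640). It had 134.2±19.6 FPKM at 0 h, 183.4±19.8 at 18 h and 231.3±40.3 FPKM at 24 h, a log2 change of 0.78±0.14 between 0 h and 24 h (adjusted p=0.011). Gdf3, a TGFβ family ligand gene next to Dppa3, had 31.0±3.66 FPKM at 0 h and 28.6±3.34 FPKM at 24 h (log2 fold-change -0.11±0.11, adjusted p=0.52). Apobec1, a cytidine deaminase gene beyond Gdf3, had 8.27±2.63 and 5.64±0.81 FPKM (log2 fold-change -0.51±0.22, adjusted p=0.16, and 0.032 with the replicate block). With the block, the same 3 of the 16 rose, where 13.6% of all genes did, and 4 fell, where 12.5% did. Since Nanog and Dppa3 set the window, the upward counts cannot be read against the shares of all genes. The cause of these changes was not tested.

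**Figure D4:**
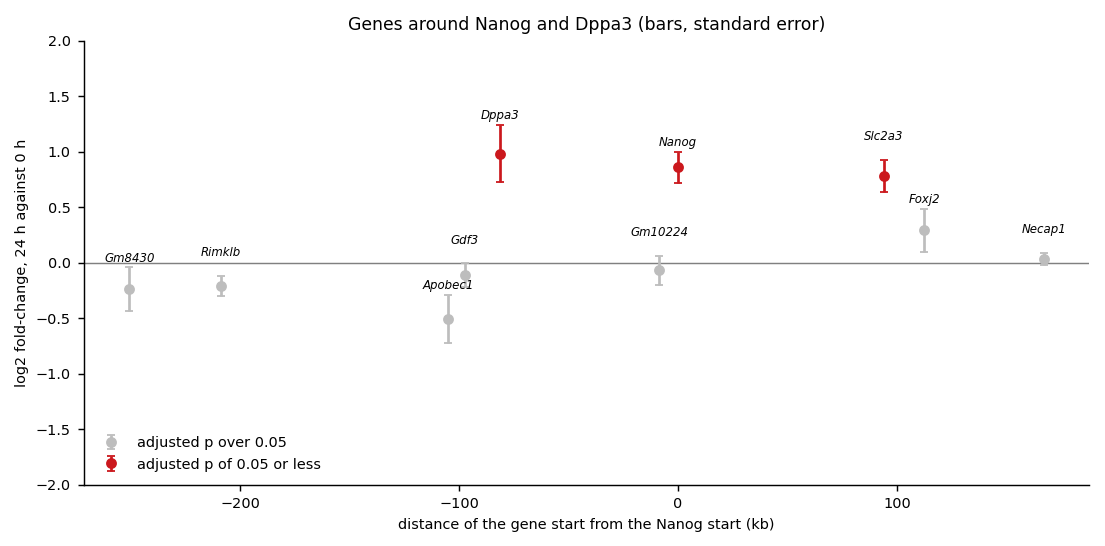
Log2 fold-change at 24 h compared with 0 h (vertical axis, bars are standard errors) of the 10 tested genes around Nanog and Dppa3 with a mean of at least 1 FPKM at any time, by the distance of their start from that of Nanog (horizontal axis, kb). Dppa3, Nanog and Slc2a3, in red, passed at an adjusted p of 0.05, and the 7 genes in grey did not.

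E2A binds E-boxes, short sites with the letters CANNTG, and E47 homodimers are known for their preference for forms such as CAGGTG. The sequence before the start of a gene was available from RefSeq (GRCm38.p6) for 7 of the 10 factors, and Klf5, Dppa3 and Prdm14 are not in the counts of motifs. For Nanog, Esrrb and Nr5a2 RefSeq gives 2 starts, and the one nearest the annotated start of the gene was used. Those of the 4 that passed in the paired fit are shown, since they changed in both directions. Each runs 5′ to 3′ on the strand of the gene and ends just before the RefSeq start, with CANNTG matches in capitals. That of Klf2 is printed without its last 29 bases, which lie in an annotated exon of the gene. The positions are chr6:122707239-122707488 (plus strand) for Nanog, chr4:55532476-55532725 (minus) for Klf4, chr8:72318812-72319032 (plus) for Klf2 and chr1:118627695-118627944 (plus) for Tfcp2l1.
Nanog: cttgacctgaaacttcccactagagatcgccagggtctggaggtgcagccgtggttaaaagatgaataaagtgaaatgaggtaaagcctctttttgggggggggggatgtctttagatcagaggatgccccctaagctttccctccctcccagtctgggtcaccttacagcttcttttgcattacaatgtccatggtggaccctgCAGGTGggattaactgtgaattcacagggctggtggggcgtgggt
Klf4: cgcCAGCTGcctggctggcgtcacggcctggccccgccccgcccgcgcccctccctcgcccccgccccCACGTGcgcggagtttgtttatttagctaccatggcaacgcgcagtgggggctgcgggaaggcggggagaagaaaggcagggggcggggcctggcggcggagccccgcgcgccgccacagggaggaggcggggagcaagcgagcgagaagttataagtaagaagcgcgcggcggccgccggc
Klf2: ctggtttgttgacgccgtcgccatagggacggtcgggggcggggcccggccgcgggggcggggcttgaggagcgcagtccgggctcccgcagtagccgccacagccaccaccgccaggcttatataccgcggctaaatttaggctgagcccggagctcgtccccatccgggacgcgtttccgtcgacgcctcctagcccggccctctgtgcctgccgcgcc
Tfcp2l1: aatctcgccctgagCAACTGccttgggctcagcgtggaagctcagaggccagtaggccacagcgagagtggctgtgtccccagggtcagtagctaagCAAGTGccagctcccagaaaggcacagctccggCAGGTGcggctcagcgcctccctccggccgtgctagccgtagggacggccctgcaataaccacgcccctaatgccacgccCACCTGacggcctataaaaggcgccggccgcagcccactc

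CANNTG reads the same on both strands and was found in the 250 bases before the RefSeq start in 6 of the 7 factors, beside 66.2% of 32851 promoter windows of this length. CAGGTG, searched on both strands and itself a form of CANNTG, was found in 3 of the 7 (Nanog, Tfcp2l1 and Zfp42), beside 17.2% of all windows. Nanog, which rose, had 1 such match, 45 bases before the start. Tfcp2l1, which fell in the paired fit, had 4 CANNTG matches, of which those at 120 and 40 bases before the start were CAGGTG on either strand. Zfp42, with no call in limma, had 1, at 110 bases. Nr5a2 had none in the window used but 1 before its second start. Klf2, which also fell in the paired fit, had no CANNTG in its 250 bases, the 29 unprinted ones included. Klf4 had CAGCTG at 247 and CACGTG at 182 bases before the start, forms that 13.0% and 6.02% of all windows hold. The letters were thus present before Nanog and, among genes called in the paired fit alone in limma, before Klf4 (up) and Tfcp2l1 (down) but not Klf2 (down). They were also present before Esrrb, Zfp42 and Nr5a2, which had no call in limma. A match is a description of the sequence and no measurement of binding.

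The other gene groups of the pluripotency network are described by their counts and medians, and were not tested against the 10 factors. At 24 h 6.52% of all genes passed upwards and 5.11% downwards in limma, and 13.6% and 12.5% with the replicate block. Of 22 other naive and ESC markers, 4 fell and none rose at 24 h, with a median log2 fold-change of -0.36. With the replicate block 11 fell and none rose. At an unadjusted p under 0.05 in limma, 5 were lower and 0 higher, and 0 passed upwards in edgeR and in DESeq2. The largest decreases were those of Fgf4, the main ligand that drives ESCs out of self-renewal (log2 fold-change -1.25±0.25, adjusted p=0.017), and Dnmt3l, a cofactor of de novo DNA methylation (-1.07±0.24, adjusted p=0.023). Of 11 general pluripotency factors, 4 fell and none rose (7 and none with the block), with a median of -0.34 and 0 higher at an unadjusted p under 0.05 in limma or at an adjusted p in edgeR and DESeq2. They included Tdgf1, a Nodal co-receptor gene (-1.46±0.10, adjusted p=0.00011), Foxd3 (-1.19±0.18, adjusted p=0.0047) and Pou5f1, the gene of OCT4, which went from 371±53.3 to 248±33.4 FPKM (-0.58±0.13, adjusted p=0.022). The calls of Fgf4, Dnmt3l and Pou5f1 were each lost without the 0 h replicate 1, the 24 h replicate 2 or the 24 h replicate 3 (adjusted p between 0.0542 and 0.0886), and that of Pou5f1 also with only the compared time points (0.0516). Each of these calls was also lost without all libraries of replicate 2 or of replicate 3 (adjusted p between 0.136 and 0.2). Tdgf1 passed in all 12 fits that left out 1 library or 1 replicate number, and Foxd3 in 11. Nanog and Dppa3, and in the paired fit Klf4, thus differed in direction from the members of these lists that passed.

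Among genes linked to the signals that maintain or end the naive state, the counts at 24 h stand beside the same shares of all genes, 6.52% upwards and 5.11% downwards in limma and 13.6% and 12.5% with the block. In the LIF, JAK and STAT3 list of 17 genes, 4 rose and 3 fell at 24 h (5 and 6 with the replicate block), with a median log2 fold-change of 0.15. The feedback inhibitor Socs3 and the kinase gene Jak2 (0.58±0.06 and 0.78±0.18) were among those that rose, and Bcl3, Pim1 and Pim3 (-0.92±0.19, -0.71±0.15 and -0.72±0.12) were those that fell. Of 18 formative and primed epiblast genes, 4 rose and 3 fell (6 and 5 with the block), with a median of 0.10, led by Fgf5, a marker of the postimplantation epiblast (1.35±0.26, adjusted p=0.013), and Lefty2 (-0.88±0.20, adjusted p=0.027). Lefty1 was among the 4 that rose, opposite to Lefty2, and its fits with libraries left out are not given here. Of 15 regulators of exit from the naive state, 2 fell and none rose (6 and none with the block), with a median of -0.13. Among these, Fnip1 fell by 0.33 on the log2 scale. In this list 0 were higher at an unadjusted p under 0.05 in limma, and 0 passed upwards in edgeR and DESeq2. In the KLF family of 17, which includes Klf2, Klf4 and Klf5, 5 fell and none rose in limma, 6 fell and 3 rose with the block, and the median was -0.14. Of the 17, 3 were higher at an unadjusted p under 0.05 in limma, and 1 passed upwards in edgeR and in DESeq2. Those that fell were Klf11 (-0.97±0.12), Klf5, Klf12 (-0.68±0.18), Klf10 (-0.41±0.07) and Klf3 (-0.40±0.09), all genes of related zinc-finger proteins. Of the genes named from these lists, Bcl3, Pim1, Jak2, Fgf5, Lefty2, Fnip1, Klf3 and Klf12 lost their call without the 24 h replicate 3, all of them but Klf12 without the 24 h replicate 2, and all but Fgf5 without the 0 h replicate 1. Calls were also lost without the 0 h replicate 2 (Jak2 and Lefty2), the 0 h replicate 3 (Pim1, Fnip1, Klf3 and Klf12), the 24 h replicate 1 (Fnip1 and Klf12) and the 18 h replicate 2 or 3 (Klf12). The adjusted p in these fits lay between 0.0525 and 0.127. Without all libraries of 1 replicate number, each of these 8 genes lost its call in 2 or 3 of the 3 fits, Klf10 in 3, Pim3 in 2 and Klf11 in 1 (adjusted p between 0.0581 and 0.259). With only the compared time points it was 0.0649 for Jak2, 0.0641 for Fnip1, 0.0758 for Klf3 and 0.087 for Klf12. Without the intensity trend it was 0.0526 for Lefty2 and 0.0564 for Klf12, and without a filter 0.0684 for Klf12. Of 14 tested genes for partners and paralogs of PRDM14, NR5A2, ESRRB and DPPA3, only Cbfa2t2, the gene of a corepressor that binds PRDM14, passed in limma, where 2 rose with the block and the median was 0.02. It rose from 9.06±0.78 to 15.9±1.65 FPKM (0.80±0.10, adjusted p=0.0021), and its call was lost without all libraries of replicate 2 or of replicate 3 (adjusted p=0.0683 and 0.0635).

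**Figure D5:**
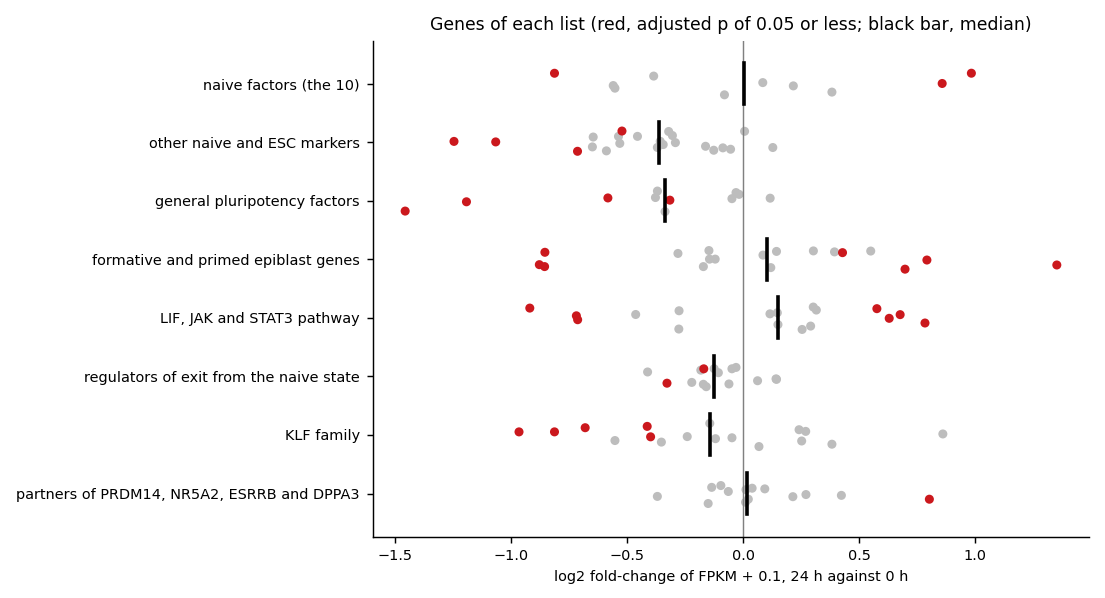
Log2 fold-change at 24 h compared with 0 h (horizontal axis) of the genes in each list, with 1 point per gene, red at an adjusted p of 0.05 or less, and a black bar at the median. The 10 naive factors spread to both sides of 0 with a median near 0, while the red points of the other naive and general pluripotency lists all lie below 0.

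Markers of other cell types moved in the same libraries, and their part in the values above was not tested. The 10 trophectoderm markers summed to between 330 and 382 FPKM at 0 h and between 628 and 829 FPKM at 24 h, of which most came from the keratin genes Krt8 and Krt18. Of 9 tested, 5 rose (Hand1, Cdx2, Krt8, Tfap2c and Krt18) and 1 fell (Tead4), beside 6.52% of all genes upwards and 5.11% downwards. The changes of the transcription factor genes Hand1, from 1.22±0.39 to 11.6±0.76 FPKM (log2 fold-change 3.19±0.21), and Cdx2, from 0.48±0.22 to 3.44±0.68 FPKM (2.68±0.29), were larger than those of Krt8 (1.21±0.12) and Krt18 (0.76±0.11), and these 4 genes were named after their values were seen. The 8 early neural markers summed to between 77.1 and 80.1 FPKM at 0 h and between 112 and 119 FPKM at 24 h. Of 6 tested, 2 rose (4 with the replicate block, where 13.6% of all genes rose and 12.5% fell). Primitive endoderm markers summed to between 4.91 and 6.63 FPKM and fibroblast feeder markers between 7.58 and 15.7 FPKM. Of 8 tested primitive endoderm markers, 2 had an unadjusted p under 0.05 at 24 h in limma (1 higher, 1 lower) and 1 (Amn, also named afterwards) fell with the block. Of 6 tested fibroblast markers, Pdgfrb rose (log2 fold-change 1.10±0.23, adjusted p=0.018) and Thy1 fell (-0.74±0.21, adjusted p=0.049), both named after their values were seen. Those of 2-cell-like cells, a rare ESC state, summed to at most 0.78 FPKM in any library, with Tcstv1 at 0 in all 0 h and 18 h libraries.

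For the 3 factors with the largest changes at 24 h, the genes with the most similar profile were sought among 11883 genes with a mean of at least 1 FPKM. Likeness was the root mean square difference over the 9 libraries of log2(FPKM+0.1), each relative to its 0 h mean, and it takes in differences between replicates as well as between times. Nearest to Dppa3 were Tfap2c, the gene of a transcription factor of trophectoderm and germ cells (difference 0.079), C030039L03Rik (0.16) and Nanos3, a germ cell gene (0.17). Nearest to Nanog were Grasp (0.11), Fbxl12 (0.13) and the imprinted non-coding RNA gene H19 (0.14). Nearest to Klf5 were Eif4ebp1, which encodes a translation repressor (0.087), the carnitine palmitoyltransferase gene Cpt1a (0.096) and Slc25a36 (0.11). The log2 fold-change of Tfap2c at 24 h was 1.00±0.25, beside 0.98±0.26 for Dppa3.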

How the data were processed

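Total RNA was collected from 9 samples of the inducible line, 3 each at 0, 18 and 24 h of dox, which the study describes as biological experiments, with groups taken from the titles and treatment entries. The treatment protocol text of the labels names other times, which were not used. The authors prepared stranded polyadenylated RNA libraries, trimmed reads with cutadapt 1.9, aligned them to GRCm38 with STAR and tested genes with edgeR 3.16.5. The handling of reads with several alignments is not given in the sources used here. The FPKM values that the authors deposited for 47729 genes are scaled for exon length and depth. Their filtered table of 19210 genes holds a deposited per-library signal, which is CPM scaled to an effective library size. From that signal whole reads were recovered for all genes (within 0.01 of a whole read), 22028363 to 26471569 per library. That table also has the authors' log2 fold-changes, p-values and false discovery rates, which were not used.

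FPKM values were tested with limma 3.58.1 (R 4.3.3, intensity trend, all 9 libraries, no block) on log2(FPKM+0.1) over the 17951 genes with a mean of at least 0.1 FPKM. On this scale, changes of weakly expressed genes come out too small. As the files hold normalized values and no raw counts, limma was the main test, and edgeR 4.0.16 and DESeq2 1.42.0 ran on the recovered reads as alternatives. Limma, edgeR and DESeq2 were each tried without the block on simulated data, in which libraries of a replicate number shared no differences. The fits with the block were not tried in this way. A gene passed if its p, adjusted by the Benjamini–Hochberg method over all genes, did not exceed 0.05. With 3 libraries against 3 an exact permutation test cannot give a p below 0.1, so none was run.

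Over 11893 genes, deviations from the group mean correlated between same-numbered libraries in all 9 pairs (0.211 to 0.548) and between different numbers in the range -0.399 to 0.11 (18 pairs), so the replicate numbers from the labels were taken as pairs, although no label says that a number marks a shared culture or day. Replicates differed by more than counting noise (chi-square over degrees of freedom 5.39 to 16.3).

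Genes named are the 10 factors, up to 4 per list that passed with the largest change at 24 h, neighbours and paralogs of the factors, the 3 genes nearest in profile to the 3 most changed factors, and Tcf3. Socs3, Lefty1 and the genes named from the marker lists of other cell types (Hand1, Cdx2, Krt8, Krt18, Tead4, Amn, Pdgfrb, Thy1 and Tcstv1) were named after their values were seen. For 1 gene that the rule names, the result is not reported here. The factors and lists were chosen with earlier results of these data known. Gene positions come from GENCODE M21 (GRCm38). Figures were drawn with matplotlib 3.10.9. Alternatives were other pseudocounts (1 and 0.01), filters (none and a mean of 1 FPKM), scalings, time points in the fit, the replicate block, no trend, single libraries left out, edgeR and DESeq2.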

Additional observations from a re-analysis of the deposited data

How the results depend on the processing

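The number of factors that passed depended most on pairing. With the replicate block it was 6 at 18 h and 6 at 24 h, instead of 1 and 3, and the block changed no other call of a factor in limma. Under edgeR with the replicate block the number was 8 at 18 h, 7 at 24 h and 2 between 18 h and 24 h. Of 19210 genes, 27%, 31.4% and 1.11% passed in these comparisons, respectively. At 18 h the number of factors was 0 without a filter, 0 without the intensity trend and 0 with only the compared time points. It was 2 after quantile normalization, 3 in edgeR and 2 in DESeq2. At 24 h it was 1 (Nanog) with only the compared time points. Without a filter, without the intensity trend and with only the compared time points, the adjusted p in limma was 0.067, 0.073 and 0.092 for Klf5 at 18 h and 0.073, 0.078 and 0.060 for Dppa3 at 24 h, and for Klf5 at 24 h it was 0.031, 0.038 and 0.0555. A 2-fold change at 24 h was reached by 1 factor after quantile normalization (Dppa3), with between 0 and 1 when libraries were left out. Across fits without 1 library, or without all libraries of 1 replicate number, between 0 and 2 factors passed at 18 h and between 0 and 3 at 24 h, with 0 at 24 h without all of replicate 1 or of replicate 3. The cause of these changes was not tested.

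The direction of Nanog, Dppa3, Klf5, Klf2, Klf4, Nr5a2 and Tfcp2l1 at 18 h and 24 h compared with 0 h was kept in all 24 alternatives. Against 0 h, directions turned for Esrrb and Zfp42 at both times and for Prdm14 at 18 h, and between 18 h and 24 h for Esrrb, Zfp42, Klf2, Klf4, Nr5a2 and Tfcp2l1. At 18 h, Klf2 was -0.30 without the 0 h replicate 1, Dppa3 0.45 without the 18 h replicate 1, and Klf4 0.58, 0.25 and 0.22 without the 0 h replicates 1 and 2 and the 18 h replicate 1, respectively. When libraries were left out, Esrrb ranged from -0.27 to 0.34 at 18 h, from -0.21 to 0.40 at 24 h and from -0.19 to 0.30 between them, and Zfp42 from -0.36 to 0.12, from -0.29 to 0.18 and from -0.15 to 0.28. Prdm14 ranged from -0.54 to 0.019 at 18 h, from 0.0098 to 0.50 at 24 h and from 0.26 to 0.76 between them. Between 18 h and 24 h, Klf2 ranged from -0.22 to 0.20, Klf4 from -0.15 to 0.18, Nr5a2 from -0.16 to 0.15 and Tfcp2l1 from -0.035 to 0.29. Nanog ranged from 0.24 to 0.47 in that comparison and Dppa3 from 0.089 to 0.53. Esrrb at 18 h was -0.022 in edgeR and -0.025 in DESeq2. After quantile normalization Zfp42 at 24 h was 0.039, and Klf2 between 18 h and 24 h was 0.00069. Nr5a2 between 18 h and 24 h was 0.0015 with a pseudocount of 1, 0.0053 in edgeR, 0.0015 in DESeq2 and 0.00020 in edgeR with the replicate block. Prdm14 was -0.14 at 18 h, 0.12 at 24 h and 0.26 between them with a pseudocount of 1. With 39 to 98 reads per library, Prdm14 is the factor that depth limits most.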
